A study of Mus musculus with 16 samples.

Results

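Podocytes of Tsc2Δpodocyte mice, called deleted here, were compared with podocytes of Tsc2flox/flox mice, called flox, when both had been taken after 1 week of rapamycin. The samples were chosen by their labels and make up 8 of the 16 arrays of the series, 4 of each genotype. The other 8 arrays hold the same genotypes without treatment, again 4 of each, and serve here as a reference for the size of the genotype difference. All mice were males of the Jcl:ICR stock, 5 weeks old in the rapamycin groups and 4 weeks old in the untreated groups. Both genotypes carried floxed Tsc2 alleles. Deleted mice also carried a Cre recombinase that is active in podocytes, whereas flox mice had no Cre, so an effect of Cre cannot be told apart from an effect of the deletion. Rapamycin was injected into the mice, glomeruli were then collected with magnetic beads and podocytes grew out of them in dishes. Whether the medium held the drug is not given in the sources used here. The sources do not say that the 4 samples of a group came from separate mice, and the p-values then measure the spread between these samples alone, which may be technical.

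TSC2 forms a complex with TSC1 that keeps the small GTPase RHEB inactive. Without it RHEB stays on and activates mTORC1, a kinase complex that promotes the synthesis of protein, lipid and nucleotides, drives glycolysis, and holds back autophagy by phosphorylating ULK1. Rapamycin inhibits mTORC1, although some of its substrates are known to be inhibited only in part. NRF2, encoded by Nfe2l2, is a transcription factor of antioxidant and detoxifying genes. It is held down by KEAP1, and the autophagy receptor p62, encoded by Sqstm1, can draw KEAP1 away from it. Podocytes cover the glomerular capillaries with foot processes and depend on steady autophagy.

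Each value below is the log2 of the background-subtracted signal of a probe minus the log2 of the 75th percentile of its array, so that 0 is the 75th percentile. The 75th percentile lay between 399 and 433 on the deleted arrays and between 380 and 456 on the flox arrays, and 30241 to 32918 spots per array were well above background. Arrays of 1 group correlated with each other at 0.979 to 0.993 and arrays of different genotypes at 0.971 to 0.987. The first principal component held 35.1% of the variance and separated the genotypes, with deleted arrays between -50.7 and -17.2 and flox arrays between 30 and 43.8. On the second, with 28.9%, the arrays of deleted replicate 2 and flox replicate 2 stood apart together at 49.8 and 48.3, and deleted replicate 1 lay at 20.3. The 8 arrays shared a slide. Each genotype filled 1 row of it, and an effect of the row cannot be told apart from one of genotype. Each replicate number filled 1 column, which 1 deleted and 1 flox array shared.

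The summed signal of 20 podocyte markers, in multiples of the 75th percentile, was 267 to 420 in deleted and 283 to 310 in flox podocytes, and Wt1 and Synpo were well above background on all 8 arrays. Markers of mesangial and smooth muscle cells summed to 716 to 815 and 631 to 736, those of parietal epithelium to 117 to 366 and 147 to 431, those of macrophages to 17.2 to 25.9 and 15.3 to 26.2, and those of endothelium to 7.6 to 12.6 and 8.39 to 17.1. Tubule markers summed to 7.74 to 85.3 in deleted and 13.2 to 82.7 in flox podocytes, a wide spread between arrays. Of them Slc34a1, Umod, Slc12a1, Slc12a3 and Calb1 were above background on no rapamycin array. The sums of the 2 genotypes overlapped for each of these lists. The sums are of signal before the log, so the brightest genes weigh most. Sums of different lists therefore do not compare numbers of cells. Within the lists, 2 of 12 parietal genes fell in deleted podocytes and none rose (Cdh6 and Pax8, log2 fold changes of -1.90 and -1.14), and 1 of 7 tested tubule genes fell (Lrp2, the endocytic receptor megalin, -1.84). Differences were negative for 11 of 12 parietal and 5 of 7 tubule genes. Calls here are at an adjusted p under 0.05, where 6.34% of all tested genes were higher and 5.12% lower. Of 14 mesangial and smooth muscle genes 2 rose and none fell, with 7 positive and 7 negative differences. These were Des (1.28) and Mcam (0.38), and the call of Mcam ended when any 1 of 5 arrays was left out (adjusted p of up to 0.101). Cspg4, of the same list, differed by -1.15 and did not pass (adjusted p = 0.0608). In cultures of this kind, fewer cells of a type and less RNA per cell cannot be told apart. Their part in the results below was not tested.

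Tsc2 itself was lower on every deleted array. Its brightest probe read 2.07, 2.73, 2.05 and 2.09 on the 4 deleted arrays and 3.65, 3.47, 2.83 and 2.93 on the 4 flox arrays. The groups did not overlap, and the nearest values, 2.73 in deleted replicate 2 and 2.83 in flox replicate 3, were close. The difference was -0.99 (SE 0.21, limma adjusted p = 0.0119), a 1.98-fold lower signal. A second probe gave -1.27 (adjusted p = 0.00763). The exact permutation test over the 8 arrays, 2-sided, gave p = 0.0286, the smallest that 4 arrays against 4 allow. The brightest probe did not pass with the methods' t-test after Benjamini-Hochberg adjustment. It was not determined whether these probes lie within the floxed stretch of Tsc2.

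Across all genes, podocytes of the 2 genotypes still differed after rapamycin. Of 26986 probes that stood well above background throughout the 4 arrays of at least 1 genotype, 1450 (5.37%) differed by at least 1.5-fold at an adjusted p under 0.05, 732 of them higher and 718 lower in deleted podocytes. They represent 909 of 13886 tested genes, 490 higher and 419 lower, and 395 of the probes had no gene symbol. At 2-fold 382 genes passed, and at 4-fold 47 were higher and 21 lower. The 4 values of deleted podocytes lay wholly outside the range of flox podocytes for 1251 of the 1450 probes, against 4706 (17.4%) of all probes tested. The 4706 include the 1251. The probes were called on these same arrays, so the larger share among them is largely built in. Without flox replicate 3 the number of genes fell to 573. The methods' t-test with the same adjustment called 296 genes, 284 of them among the 909.

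The same probes in untreated podocytes, tested in the same fit, gave 2635 probes (9.76%) and 1545 genes, 937 higher and 610 lower, with 2 genes in both counts through different probes. Of the 909 genes, 630 were also called without treatment, which is 69.3% of the genes called with rapamycin and 40.8% of those called without. Among them 377 were higher in both, 252 lower in both, and 1 was called in opposite directions on different probes. The 2 comparisons share no arrays, though they share 1 estimate of the spread. The genotype difference of the 1450 probes had a median size of 0.896 with rapamycin and 0.867 without, and 1434 of them had the same sign in untreated podocytes. Read from the other side, the 2635 probes called without treatment had a median of 0.909 there and 0.598 with rapamycin, and 320 of them were larger with rapamycin. Each set was chosen in the comparison where its median is the larger, so these medians describe the sets and do not measure a change.

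**Figure D1:**
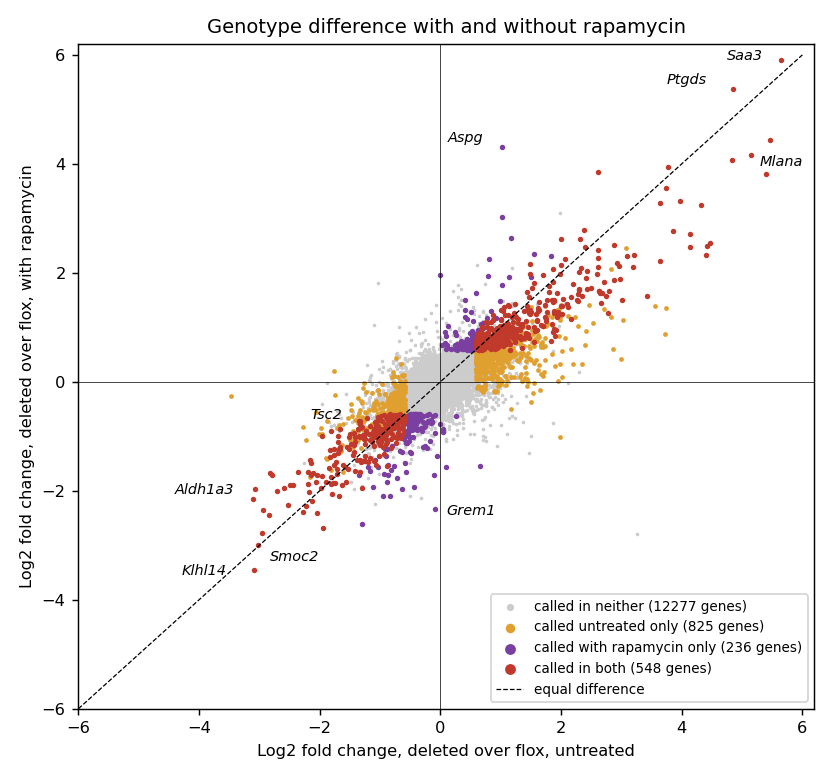
Log2 fold change of deleted over flox podocytes for each of 13886 genes by its brightest probe, untreated on the horizontal axis and with rapamycin on the vertical axis, with the dashed line marking equal differences. By this probe 548 genes were called in both, 825 untreated only and 236 with rapamycin only. Most called genes lie in the quadrants of equal sign, and Aspg and Grem1 lie away from the line.

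The change of the genotype difference itself was tested as an interaction. Only 1 of the 26986 probes (0.00371%) passed 1.5-fold and an adjusted p under 0.05. It has no gene symbol. Its signal was 1.17 higher in deleted podocytes without treatment and differed by -0.18 with rapamycin, an interaction of -1.35 (adjusted p = 0.0431), and this call ended when any 1 of 13 of the 16 arrays was left out (adjusted p of up to 0.181). At an unadjusted p under 0.05 there were 1980 probes (7.34%), where 1349 would pass if no difference changed. The untreated arrays were on another slide and came from mice 1 week younger, so a change of the genotype difference with rapamycin cannot be told apart from one with slide or age. The median standard error was 0.15 for the difference under rapamycin and 0.212 for the interaction. A gene called in 1 comparison and not in the other is therefore not shown to differ between them. The 279 genes called with rapamycin alone had a median size of 0.751, and 0.467 in the same direction without treatment, where 271 had the same sign and 66 had an adjusted p under 0.05. The 915 genes called untreated alone had medians of 0.831 without treatment and 0.447 in that direction with rapamycin, where 871 had the same sign and 131 had an adjusted p under 0.05.

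The largest rises included Saa3, Ptgds and Slpi. Saa3, an acute-phase serum amyloid, read 0.11, 1.24, -1.69 and 1.53 in deleted podocytes and -5.09, -5.40, -5.91 and -6.01 in flox podocytes, where it was above background on no array. The groups lie far apart, at least 43.1-fold (adjusted p = 0.000664). This bound sets the deleted mean against the lowest signal that counts as well above background on each flox array. Ptgds, the lipocalin-type synthase of prostaglandin D2, read 2.75, 1.45, 2.77 and 1.17 against -3.99, -2.21, -3.37 and -3.75. It was measured on all 8 arrays and was 41.2-fold higher (5.36, SE 0.46, adjusted p = 0.000131). Slpi, a secreted inhibitor of leukocyte proteases, read 1.85, 1.56, 0.93 and 0.16 against -2.33, -1.05, -3.66 and -2.68, without overlap (3.55, SE 0.63, adjusted p = 0.00519). A second, dimmer Slpi probe, also above background on all 8 arrays, differed by 0.41 and did not pass (adjusted p = 0.462), so the 2 probes disagree.

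Several further genes had probes above background on no flox array. Mlana, a protein of pigment cell melanosomes, read -2.55, -3.71, -1.79 and -3.45 in deleted podocytes and between -7.33 and -6.49 in flox podocytes, at least 4.77-fold higher (adjusted p = 0.00021). Serpina3n, an extracellular serine protease inhibitor, was at least 3.39-fold higher (adjusted p = 0.00223) and Trim58, a ubiquitin ligase, at least 3.97-fold (adjusted p = 0.000144). Aspg, an asparaginase, read -0.63, -3.25, 0.21 and -2.89 against -5.43 or less on all flox arrays, at least 11.3-fold higher (adjusted p = 0.00952). Deleted replicates 1 and 3 were the high ones, and without treatment the difference of Aspg was 1.02 (adjusted p = 0.453; interaction 3.29, adjusted p = 0.646). The trypsin genes Try5, Try4 and Prss3 were at least 6.48-, 4.45- and 2.29-fold higher, but these near-identical copies may share probes and cannot be told apart with certainty. Other rises were measured on some or all flox arrays. Xdh, xanthine dehydrogenase of purine breakdown, rose by 2.32 (SE 0.45, adjusted p = 0.00763) by its brightest probe, which was above background on all 8 arrays, and by at least 1.86-fold (adjusted p = 0.000144) by a dimmer probe that was above background on no flox array. Tchhl1 was above background on 1 of the 4 flox arrays, so its fitted difference (3.82, adjusted p = 0.0025) rests mostly on flox values that were not measured above background. Mc3r, a melanocortin receptor, was above background on 3 flox arrays and differed by 3.31 (adjusted p = 0.0407), and its call ended when any 1 of 7 arrays was left out, with an adjusted p of up to 0.123.

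The largest falls included Klhl14, Smoc2 and Prss12. Klhl14, a kelch protein, was above background on no deleted array, with -5.74, -5.75, -7.72 and -6.63 against -3.56, -2.81, -2.84 and -2.84, at least 5.26-fold lower (adjusted p = 0.000664). Smoc2, a calcium-binding matrix protein, read -3.57, -3.76, -4.87 and -3.82 in deleted podocytes and -1.25, -1.84, 0.06 and -0.07 in flox podocytes. The groups were clearly separate and the signal was 9.37-fold lower (-3.23, SE 0.57, adjusted p = 0.00523). These values are from a dimmer Smoc2 probe, and the brightest probe was 7.93-fold lower (-2.99, SE 0.54, adjusted p = 0.00556). Prss12, the protease neurotrypsin, fell by 2.68, the adhesion receptor Adgrb2 by 2.27, Asphd2 by 2.28, Fam189a1 by 2.45 and Nnat, neuronatin, by 2.19, with adjusted p from 0.000819 to 0.0114. C4bp, a complement regulator, and Tafa1, a chemokine-like secreted protein, were above background on no deleted array and at least 3.25-fold and 3.66-fold lower. Aldh1a3, a retinaldehyde dehydrogenase that makes retinoic acid, read -1.52, -1.74, -3.04 and -1.87 against -0.41, -0.87, 0.92 and 0.79 (-2.15, SE 0.46, adjusted p = 0.0109). Grem1, a secreted antagonist of bone morphogenetic proteins, read -0.91, -0.99, -2.96 and 0.59 against 2.13, 0.81, 1.37 and 0.78. Its nearest values, 0.59 in deleted replicate 4 and 0.78 in flox replicate 4, almost touched, the difference was -2.34 (SE 0.64, adjusted p = 0.0336), and without treatment it was -0.10 (adjusted p = 0.936; interaction -2.24, adjusted p = 0.667). Its call ended when any 1 of 6 arrays was left out, with an adjusted p of up to 0.0825.

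Genes called in the same direction with and without rapamycin included some with little spread between arrays. Mcoln2, a cation channel of endosomes and lysosomes, read -1.35, -1.30, -1.15 and -1.04 in deleted podocytes and -3.06, -2.78, -3.26 and -2.95 in flox podocytes (1.80, SE 0.15, adjusted p = 0.000125), beside 2.20 without treatment. Gbe1, the glycogen branching enzyme, rose by 1.57 (adjusted p = 0.00035), beside 2.35. In the other direction, Socs2, an inhibitor of cytokine and growth hormone signalling, read 0.75, 0.26, 0.06 and 0.40 against 2.13, 2.05, 2.07 and 2.15 (-1.73, SE 0.18, adjusted p = 0.00035). Cadm1, a cell adhesion molecule, fell by 1.45, and the transcription factors Bach2 and Glis1 by 1.05 and 1.03, each without overlap between the genotypes and with an adjusted p of 0.000664. Without treatment these 3 genes differed by -1.27, -1.25 and -0.72.

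**Figure D2:**
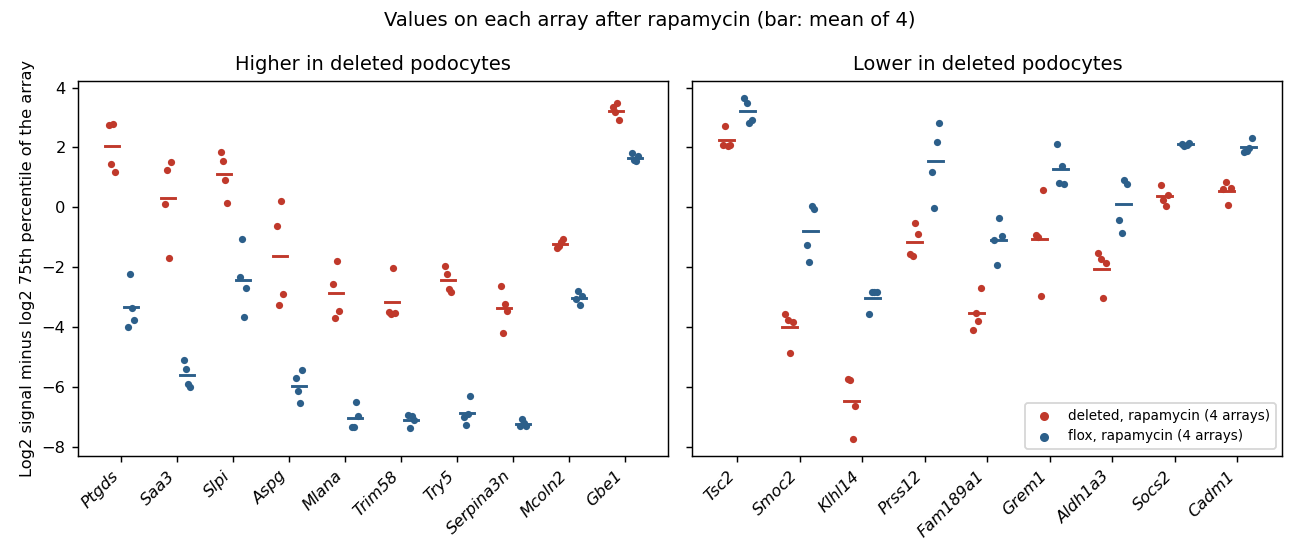
Value of each gene on each of the 8 rapamycin arrays, log2 signal relative to the 75th percentile of its array, with deleted arrays in red, flox arrays in blue and a bar at each mean of 4. The 2 genotypes do not overlap for any gene drawn, and the gap is narrow for Tsc2 and Grem1. Most of these genes were chosen among those without overlap, so its absence is built in for them. Smoc2 is drawn by a dimmer probe.

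Genes were then read by lists of known function, each gene by its brightest probe and counted as risen or fallen at an adjusted p under 0.05 whatever its fold. Genes not above background in either genotype were not tested. Over all 13886 genes, 6.34% were higher and 5.12% lower in deleted podocytes with rapamycin, and 10.2% and 9.33% without. The median difference over all genes was 0.00637 with rapamycin and -0.0127 without. How many of all genes differed less, or more, with rapamycin than without was not counted. The lists were chosen with earlier results of these data known. Such counts below therefore describe the lists and do not measure a change. The share of members past the threshold was highest for the synthesis of cholesterol and fatty acids, for glycolysis and for NRF2 targets among the lists that rose, and for the feedback inhibitors of ERK among those that fell. Several lists had no member past it. At an unadjusted p under 0.05, the threshold given beside lists with no member past the adjusted one, 14.8% of all genes were higher and 12.8% lower. For Cycs, Lamb1, Mt1, Nrp2, Pax8, Skil and Tcf7l2, whose brightest probes passed, at least 1 other tested probe had the same sign and did not pass.

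**Figure D3:**
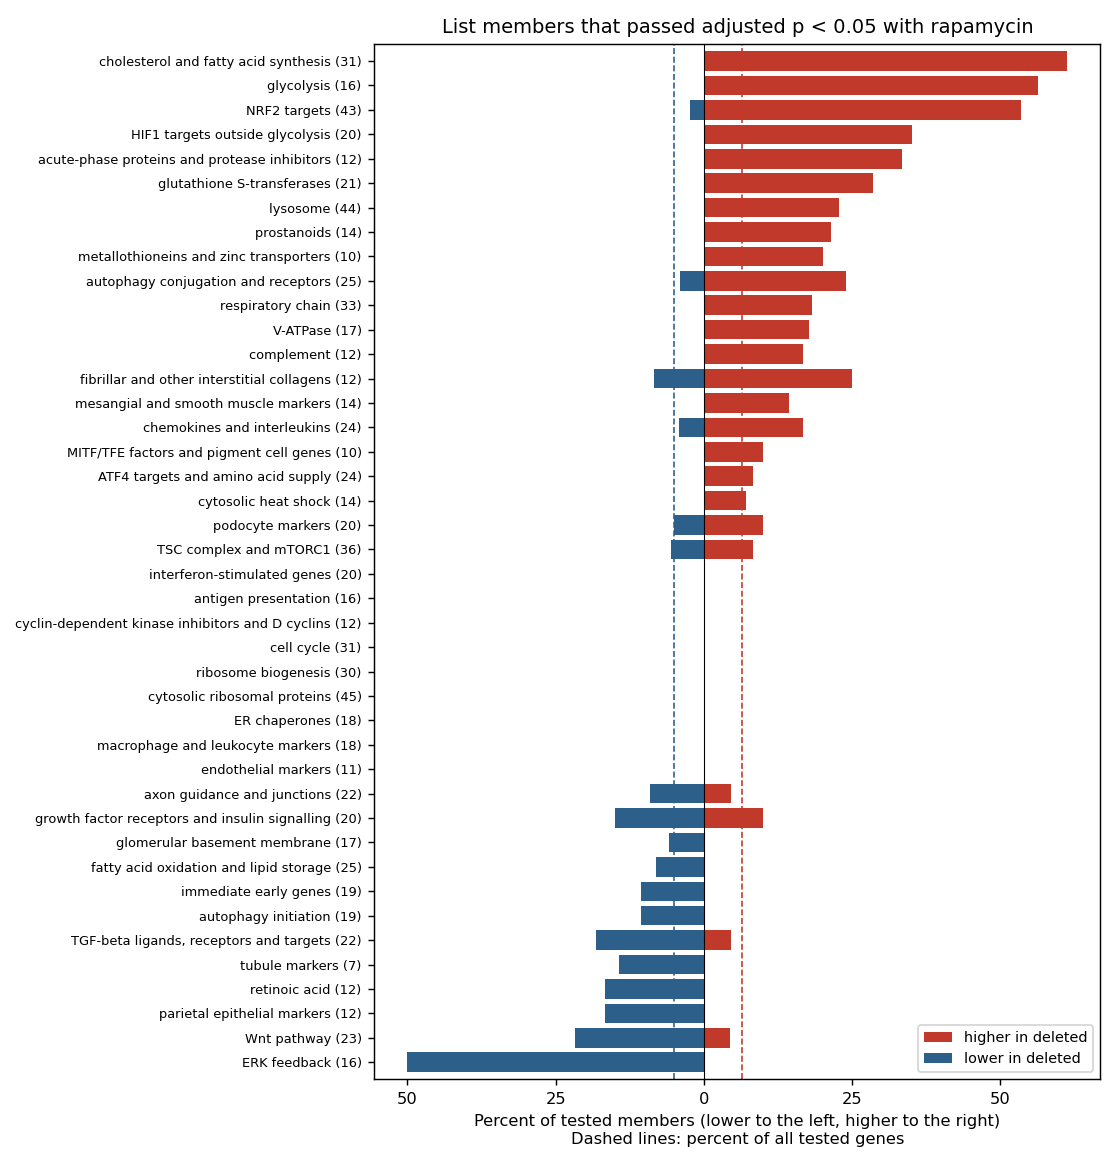
Percent of the tested members of each list that passed an adjusted p under 0.05 with rapamycin, higher in deleted podocytes to the right and lower to the left, with the number tested in brackets and dashed lines at the percent of all genes, 6.34% and 5.12%. The lists at the top are those in which 19 of 31, 9 of 16 and 23 of 43 members rose, and at the bottom ERK feedback, in which 8 of 16 fell.

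NRF2 targets were higher in deleted podocytes after rapamycin. Of 43 tested members 23 rose, 1 fell (Maff, a small MAF protein, -0.40) and 19 did not pass, with a median of 0.533, and 37 of 43 differences were positive. Without treatment 30 rose and the median was 0.693, and for 38 members the size of the difference was smaller with rapamycin than without. Over all genes this was not counted. The interaction passed for no single member (smallest adjusted p = 0.626), and 11 of the 43 members had an unadjusted p under 0.05, against 7.41% of all genes. The number that rose was between 21 and 24 with any 1 array left out and 13 by the methods' t-test, and the fall of Maff was lost without deleted replicate 1 or 4 or flox replicate 1, 3 or 4.

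The members cover several arms of the response. Srxn1, sulfiredoxin, which repairs oxidised peroxiredoxins, read 5.76, 5.29, 5.95 and 5.04 in deleted podocytes and 4.07, 3.86, 3.76 and 3.95 in flox podocytes. Every deleted value lay well above every flox value (1.60, SE 0.20, adjusted p = 0.000748), beside 2.28 without treatment. Hmox1, the haem-degrading oxygenase, read 5.97, 5.75, 6.20 and 5.67 against 4.29, 4.39, 4.56 and 4.50 (1.46, SE 0.20, adjusted p = 0.00128). Slc48a1, a haem transporter, rose by 1.31, and Slc7a11, the cystine importer, by 2.10. Named after their values were seen, Gclm and Gclc, the subunits of the rate-limiting enzyme of glutathione synthesis, rose by 0.87 and 0.72, Txnrd1, thioredoxin reductase, by 0.57, G6pdx and Pgd, which make NADPH in the pentose phosphate pathway, by 1.04 and 0.61, and Blvrb, biliverdin reductase B, by 1.15. Nqo1, the quinone reductase, differed by 1.34 and did not pass (adjusted p = 0.0867). Of 21 tested glutathione S-transferases, which couple glutathione to toxic compounds, 6 rose and none fell, against 9 and none without treatment. Gsta3 and Gsta2 differed most (2.47 and 2.50). These paralogs are close in sequence and their probes may share signal. Gsta4 and Gstm6 rose by 1.30 and 1.03.

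The regulators of the pathway differed less. Nfe2l2, which encodes NRF2, read 3.33, 3.37, 3.17 and 3.32 against 2.97, 2.87, 2.68 and 2.70, without overlap (0.49, SE 0.10, adjusted p = 0.00978). Sqstm1 read 7.25, 6.95, 7.52 and 6.77 against 6.28, 6.18, 6.50 and 6.63, with deleted replicate 4 and flox replicate 4 close together. It rose by 0.72 (SE 0.16, adjusted p = 0.0114), beside 1.11 without treatment (interaction -0.39, adjusted p = 0.743), and with only the 8 rapamycin arrays in the fit its adjusted p was 0.0535. Keap1 read 1.64, 1.61, 1.64 and 1.69 against 1.5, 1.47, 1.58 and 1.57, also without overlap but by a small margin. It differed by 0.11 and did not pass (adjusted p = 0.412).

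**Figure D4:**
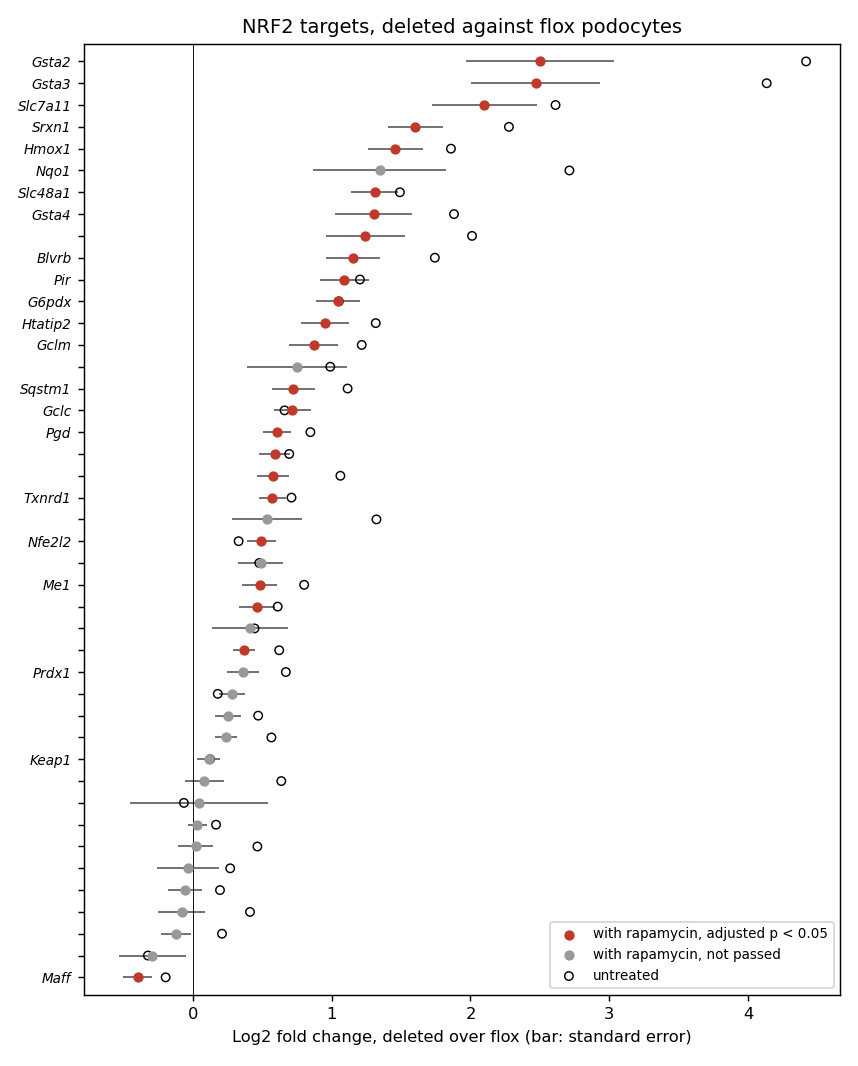
Log2 fold change of deleted over flox podocytes for the 43 tested NRF2 targets with rapamycin (filled points, red where the adjusted p was under 0.05, bars are the standard error) and without treatment (open circles), with labels for the genes named in the text. 37 of the 43 filled points lie above 0, and 38 lie closer to 0 than their open circle.

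The promoters of these genes were read for the letters NRF2 and its MAF partners are known to bind. The antioxidant response element was searched as TGACNNNGC and the MAF-type core as TGANTCAGC, on both strands of the window from 250 bases before to 50 bases after the transcription start in RefSeq (GRCm38.p6), and a site may match both. Of the 44 listed targets 36 had a promoter, and 16 of these (44.4%) held the first motif, against 12.4% of 32851 promoters and 14% of 27025 genes. The second was in 7 (19.4%), against 1.19% of promoters and 1.37% of genes. Among the 18 targets that rose and had a promoter, 11 held the first and 4 the second. The list was assembled from genes known to be NRF2 targets, so the share over the list is partly built in, and a match in letters is not a binding site. Both motifs were in the promoters of Srxn1, Me1, Prdx1, Htatip2 and Pir. Srxn1 is shown because it had the smallest p of the list, and Gclm because it is a classical target with the reverse-strand form of the first motif. Capitals mark the matches. The windows are chr2:152105274-152105573 on the plus strand and chr3:122245307-122245606 on the plus strand.
Srxn1: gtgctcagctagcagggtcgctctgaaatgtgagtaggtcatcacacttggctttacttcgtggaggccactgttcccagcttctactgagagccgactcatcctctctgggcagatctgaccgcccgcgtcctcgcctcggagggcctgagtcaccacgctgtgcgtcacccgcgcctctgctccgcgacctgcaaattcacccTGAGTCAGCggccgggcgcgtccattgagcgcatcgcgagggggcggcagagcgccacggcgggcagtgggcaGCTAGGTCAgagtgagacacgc
Gclm: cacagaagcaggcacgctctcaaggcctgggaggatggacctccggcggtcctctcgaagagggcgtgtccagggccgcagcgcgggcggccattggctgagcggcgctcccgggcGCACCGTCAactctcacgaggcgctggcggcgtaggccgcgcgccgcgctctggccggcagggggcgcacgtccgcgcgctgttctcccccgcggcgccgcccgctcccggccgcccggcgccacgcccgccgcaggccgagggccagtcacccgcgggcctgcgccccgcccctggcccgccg
In Srxn1 the MAF-type core TGAGTCAGC starts at -45 from the transcription start and a reverse-strand antioxidant response element, GCTAGGTCA, at 29. In Gclm the element GCACCGTCA starts at -134.

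Genes of cholesterol and fatty acid synthesis were higher in deleted podocytes. Of 31 tested members 19 rose and none fell, all 31 differences were positive, and the median was 0.541. Without treatment 15 rose and the median was 0.428, and 25 members had the larger difference with rapamycin. Over all genes this was not counted. No member's interaction passed (smallest adjusted p = 0.611, and 1 member at an unadjusted p under 0.05). The number that rose was 14 to 19 with any 1 array left out. Most of these genes are targets of SREBP2, the transcription factor that is set free when membrane cholesterol is low.

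Insig1, which retains SREBPs in the endoplasmic reticulum and is itself their target, read -1.94, -1.79, -1.55 and -1.54 in deleted podocytes and -2.86, -2.77, -2.92 and -3.16 in flox podocytes. The groups were well apart (1.22, SE 0.19, adjusted p = 0.00263). Sqle, squalene epoxidase, read 3.55, 3.77, 3.66 and 3.66 against 3.0, 3.01, 2.73 and 2.81 (0.78, SE 0.13, adjusted p = 0.00341). Pmvk, phosphomevalonate kinase, rose by 0.64 (SE 0.11, adjusted p = 0.00439), whereas without treatment it differed by 0.11 (adjusted p = 0.517; interaction 0.53, adjusted p = 0.611). Named after their values were seen, Hmgcs1, a synthase of the mevalonate pathway, rose by 0.61 and Scd2, a fatty acid desaturase, by 1.23. The genes of fatty acid synthesis proper did not pass, with 0.15 for Fasn, 0.17 for Acaca and 0.30 for Acly, nor did the factors themselves, with 0.27 for Srebf2 and 0.09 for Srebf1.

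The sterol regulatory element was searched as TCACNCCAC, on both strands. Of the 31 listed genes 20 had a promoter window and 1 of them, Hmgcs1, held it, against 1.24% of promoters and 1.44% of genes. Its window, chr13:119690101-119690400 on the plus strand, is shown with the match, which starts at -137, in capitals.
Hmgcs1: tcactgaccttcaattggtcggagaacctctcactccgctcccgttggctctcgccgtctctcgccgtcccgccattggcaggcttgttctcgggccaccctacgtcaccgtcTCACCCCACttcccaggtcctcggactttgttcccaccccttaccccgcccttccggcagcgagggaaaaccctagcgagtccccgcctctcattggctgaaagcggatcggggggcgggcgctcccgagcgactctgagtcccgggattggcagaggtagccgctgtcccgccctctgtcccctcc
For the other 19 genes with a window these letters were not in it.

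**Figure D5:**
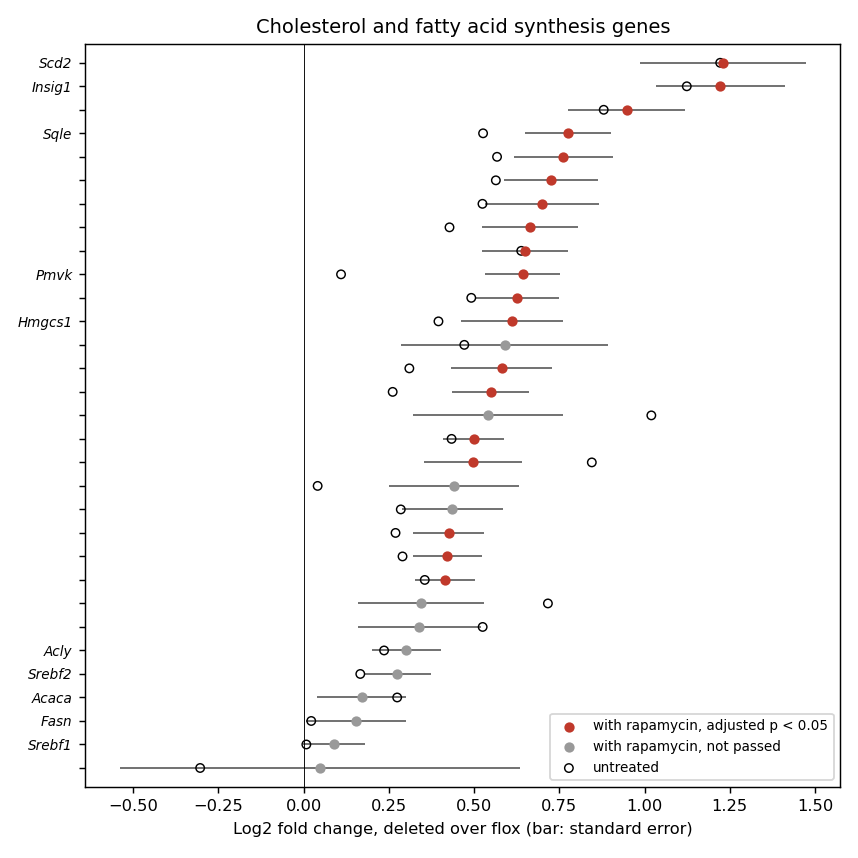
Log2 fold change of deleted over flox podocytes for the 31 genes of cholesterol and fatty acid synthesis with rapamycin (filled points, red where the adjusted p was under 0.05, bars are the standard error) and without treatment (open circles), with labels for the genes named in the text. All 31 filled points lie above 0, and 25 lie further from 0 than their open circle.

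Genes of glycolysis and targets of HIF1, the hypoxia-inducible factor whose synthesis mTORC1 promotes, were higher as well. Of 16 tested glycolytic genes 9 rose and none fell (median 0.411), against 12 and none without treatment (0.737). Eno2, an enolase, read 1.46, 0.50, 1.83 and 1.04 against -1.15, -1.27, -0.61 and -0.64, clearly apart (2.13, SE 0.36, adjusted p = 0.00438). Tpi1, triosephosphate isomerase, rose by 1.01 and Pfkp, the platelet form of phosphofructokinase, by 0.73. Of 20 HIF1 targets outside glycolysis 7 rose and none fell (median 0.525), against 14 and none (0.961). Bnip3, a mitophagy receptor, read 4.46, 3.61, 4.73 and 4.11 against 2.24, 1.97, 2.57 and 2.54 (1.90, SE 0.34, adjusted p = 0.0055). Pdk1, a kinase that inhibits pyruvate dehydrogenase, rose by 1.88 (0.13 by the dimmest of its 3 probes, adjusted p = 0.595) and Slc2a3, a glucose transporter, by 0.51. The glycolytic count was 5 without flox replicate 3. The HIF1 count was 3 without deleted replicate 1, flox replicate 3 or flox replicate 4, and 4 without deleted replicate 3 or flox replicate 1 and by the methods' t-test. In both lists most differences were smaller with rapamycin than without, for 13 of 16 and 17 of 20 genes, with no interaction past the threshold (smallest adjusted p = 0.611). Over all genes this was not counted.

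Some lysosomal genes rose. Of 44 tested 10 rose and none fell (median 0.265), against 21 and none without treatment (0.487). Neu1, lysosomal sialidase, read 4.37, 4.20, 4.79 and 4.14 in deleted podocytes and 3.38, 3.70, 3.34 and 3.31 in flox podocytes (0.95, SE 0.14, adjusted p = 0.00219). Sgsh, a sulphohydrolase of heparan sulphate, and Ctsb, cathepsin B, rose by 0.73 and 0.57. This count was 3 with only the 8 rapamycin arrays in the fit and by the methods' t-test, and 4 to 6 without any 1 array other than deleted replicate 2. Of 17 V-ATPase subunits, which acidify the lysosome, 16 had positive differences and 3 rose (Atp6v0e2, Atp6ap2 and Atp6v1c1, 0.39 to 0.46), and this count ranged from 0 without deleted replicate 1 or 3 to 7 without deleted replicate 2. Mitf, Tfeb and Tfe3, factors of lysosomal genes, differed by 0.46, 0.10 and 0.00 and did not pass.

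Few genes of autophagy initiation differed at the RNA level, and some of conjugation and of autophagy receptors did. Over all genes 6.34% were higher and 5.12% lower. Of 19 genes of autophagy initiation none rose, and Atg101 and Atg14, subunits of the ULK1 and VPS34 complexes, fell by 0.26 and 0.42. Atg14 overlapped between the genotypes. Atg101 read 3.14, 3.20, 3.34 and 3.25 against 3.52, 3.41, 3.50 and 3.56, without overlap but by a small margin (SE 0.075, adjusted p = 0.0386). Both calls ended when any 1 of 6 arrays was left out, with adjusted p of up to 0.106 and 0.128. Ulk1 differed by -0.14 and Map1lc3b, the gene of LC3B, by 0.17, and neither passed. Rb1cc1, the gene of FIP200, differed by 0.05 by its brightest probe (adjusted p = 0.796). Of its 5 other tested probes 1 was lower (-0.41, adjusted p = 0.0111, beside -0.49 without treatment, adjusted p = 0.00201), and 4 lay between -0.08 and 0.07 and did not pass. Of 25 genes of conjugation and of autophagy receptors 6 rose, among them Bnip3, Sqstm1 and the protease gene Atg4a (0.38), and 1 fell (Atg16l1, -0.28, named after its value was seen). The first count was 2 without deleted replicate 1, 3 without deleted replicate 3 or flox replicate 3, and 1 with only the 8 rapamycin arrays in the fit or by the methods' t-test. The fall of Atg16l1 was lost without deleted replicate 4 or flox replicate 2 or 3.

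Within the TSC and mTORC1 machinery 3 of 36 genes rose and 2 fell, Tsc2 among the latter. These counts are near the shares over all genes, 6.34% higher and 5.12% lower. Rragd, a GTPase that recruits mTORC1 to lysosomes, read 1.66, 1.51, 1.94 and 1.61 in deleted podocytes and -0.27, 0.01, 0.70 and 1.18 in flox podocytes (1.27, SE 0.28, adjusted p = 0.0114). The flox arrays were widely spread and flox replicate 4 came closest. Eif4ebp1, an inhibitor of cap-dependent translation and a substrate of mTORC1, read 5.37, 5.40, 5.50 and 5.37 against 4.95, 4.86, 4.70 and 4.82, with every deleted array above every flox array (0.58, SE 0.087, adjusted p = 0.00229), beside 0.25 without treatment (adjusted p = 0.0569). Lamtor5, a subunit of the lysosomal anchor, rose by 0.33 and Rhebl1, a relative of RHEB, fell by 0.49, both named after their values were seen. The number that fell was 1 without deleted replicate 1 or without any of flox replicates 1, 3 and 4. Mtor, Tsc1 and Rps6kb1, the gene of S6 kinase, differed by 0.00, -0.06 and 0.05 and did not pass. Among the outputs tied to growth, none of 45 genes of cytosolic ribosomal proteins and none of 30 genes of ribosome biogenesis passed in limma, with medians of -0.0277 and -0.0226, and the methods' t-test called none. At an unadjusted p under 0.05 there were 2 rises and 1 fall among the former and 2 rises among the latter, where 14.8% of all genes were higher and 12.8% lower.

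The feedback inhibitors and target genes of ERK, the kinase at the end of the RAS pathway, were lower. Of 16 tested 8 fell and none rose, 15 differences were negative, and the median was -0.551, against 10 falls and -0.687 without treatment. Dusp4, a phosphatase of ERK, read -0.64, -0.50, -0.65 and -0.65 against 0.63, 0.09, 0.72 and 0.63 (-1.13, SE 0.19, adjusted p = 0.004). The 4 deleted arrays were nearly equal and flox replicate 2 came nearest to them. Etv4 and Etv5, transcription factors induced by ERK, fell by 1.14 and 0.54. The count was 5 with only the 8 rapamycin arrays in the fit, 4 without deleted replicate 3 or flox replicate 4, and 5 without flox replicate 3. The methods' t-test called 1 of them after adjustment. Of 20 genes of growth factor receptors and insulin signalling 2 rose and 3 fell, beside 6.34% and 5.12% of all genes. Irs1, the docking protein of the insulin receptor, read 0.61, 1.17, 1.01 and 1.71 in deleted podocytes and 2.54, 1.75, 2.43 and 2.33 in flox podocytes, with the nearest values at 1.71 and 1.75 (-1.14, SE 0.23, adjusted p = 0.00865). Igf1r fell by 0.36 and Igfbp6, a binding protein of insulin-like growth factors, rose by 1.15. Of 19 immediate early genes 2 fell, Fosb by 0.82 and Nr4a2 by 0.64, and the Nr4a2 call ended when any 1 of 5 arrays was left out (adjusted p of up to 0.061).

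Matrix genes changed in both directions, where 6.34% of all genes were higher and 5.12% lower. Col1a2, a chain of type I collagen, read 6.84, 6.61, 6.57 and 6.57 against 3.97, 4.02, 4.37 and 4.35, a wide and even gap (2.47, SE 0.32, adjusted p = 0.0011). Col1a1, its partner chain, rose by 1.43 and Col5a3 by 1.15, and Col16a1 (-1.02, named after its value was seen) was the 1 fall among 12 interstitial collagens, whose median was -0.263. That fall was lost without flox replicate 3 or flox replicate 4. Of 17 genes of the glomerular basement membrane Lamb1 alone passed, at -0.77, and its call ended when any 1 of 6 arrays was left out (adjusted p of up to 0.12). Among 22 genes of TGF-beta signalling 1 rose and 4 fell, including Ltbp2, a matrix protein that binds microfibrils, by 1.66, Skil by 0.38 and Smad7 by 0.27. These rest on single arrays: with 1 array left out the number that fell ranged from 0, without deleted replicate 3, deleted replicate 4 or flox replicate 3, to 3, and it was 0 with only the 8 rapamycin arrays in the fit. The rise, of the co-receptor gene Tgfbr3 (0.74, named after its value was seen), was lost without any 1 array other than deleted replicate 2. Of 23 Wnt genes 5 fell and 1 rose, Cxxc4, an inhibitor of Wnt signalling, by 2.35 (above background on 2 deleted arrays) and Tcf7l2, a transcription factor of the pathway, by 0.73. The number that fell was 2 to 4 with 1 array left out, lowest without deleted replicate 1, 3 or 4 or flox replicate 3 or 4, and 3 without flox replicate 1 or with only the 8 rapamycin arrays in the fit. Lef1, a relative of Tcf7l2, rose by 0.73, and its call ended when any 1 of 5 arrays was left out (adjusted p of up to 0.0729).

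Genes of prostanoids, the acute phase and complement held some of the largest rises. Beside Ptgds, 2 more of 14 prostanoid genes rose and none fell. Ptger2, a receptor for prostaglandin E2, read -2.78, -2.64, -3.78 and -2.78 against -4.44, -5.11, -4.48 and -4.61, with deleted replicate 3 nearest to flox (1.67, SE 0.24, adjusted p = 0.00168). Ptgfr, the receptor for prostaglandin F2-alpha, was at least 2.12-fold higher. Of 12 acute-phase genes and protease inhibitors 4 rose and none fell (median 0.786, against 1.33 without treatment), Saa3, Serpina3n and Slpi named above and Saa1 (1.01), a close relative of Saa3. Of 12 complement genes 2 rose, the protease gene C1s1 by 2.62 and C3 by 1.69. C3, the central component, read 0.48, 0.85, 0.34 and 0.12 against -1.31, -1.10, -1.14 and -1.41 and the groups did not come near each other (SE 0.39, adjusted p = 0.0149). Of 24 chemokines and interleukins 4 rose and 1 fell (Cxcl12, -1.94, named after its value was seen). Ccl7, a monocyte chemokine, read 0.68, 0.47, 0.57 and 0.79 against -1.84, -0.97, -0.77 and -1.24 (1.83, SE 0.26, adjusted p = 0.00158). Il18 and Mif rose by 1.02 and 0.55, and these calls ended when any 1 of 5 and of 2 arrays was left out (adjusted p of up to 0.0664 and 0.0555). The number of chemokines and interleukins that rose was 1 without deleted replicate 1 or flox replicate 4 and 2 without deleted replicate 3 or flox replicate 1 or 3, and the fall of Cxcl12 was lost without any 1 of 5 arrays. None of 18 macrophage markers, 16 genes of antigen presentation and 20 interferon-stimulated genes passed in limma or by the methods' t-test, against 2 rises and 1 fall, 5 rises and 4 rises without treatment. At an unadjusted p under 0.05 the counts with rapamycin were 2 falls, 3 rises and 1 fall, and 2 rises and 1 fall. Of the last 2 lists, 4 genes of antigen presentation and 2 interferon-stimulated genes were higher past the threshold without flox replicate 2.

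Genes of the respiratory chain differed by little. Of 33 genes of the respiratory chain 31 had positive differences and 6 rose, by up to 0.46 (median 0.158, against 0.125 and also 6 without treatment). Cycs, cytochrome c, read 5.75, 5.92, 5.71 and 5.92 in deleted podocytes and 5.48, 5.39, 5.28 and 5.31 in flox podocytes (0.46, SE 0.086, adjusted p = 0.00671). Cox4i1 and Sdhc, subunits of complexes IV and II, rose by 0.36 and 0.30. The count was 3 without flox replicate 3 and 2 with only the 8 rapamycin arrays in the fit, and the Sdhc call ended without deleted replicate 1 (adjusted p = 0.0505). Among 25 genes of fatty acid oxidation and lipid storage none rose, and Lpl, lipoprotein lipase, and Cd36, a fatty acid importer, fell by 0.95 and 1.92. Lpl read 0.03, 0.25, 0.22 and 0.17 against 0.72, 0.95, 1.69 and 1.10. Without treatment these 2 genes differed by -0.10 and -0.44, and neither interaction passed (adjusted p = 0.645 and 0.739). The call of Lpl ended without deleted replicate 1 or flox replicate 3, and that of Cd36 without any 1 of 6 arrays.

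Other lists held few or no changes, where 6.34% of all genes were higher and 5.12% lower. None of 31 cell cycle genes passed in limma, with a median of -0.0631 against -0.426 without treatment, and none of 12 cyclin-dependent kinase inhibitors and D cyclins, 18 chaperones of the endoplasmic reticulum and 11 endothelial markers. The methods' t-test called none of these either. At an unadjusted p under 0.05 there were 2 rises and 1 fall, 2 rises and 1 fall, 3 rises and 1 fall, and 1 fall, and 1 or 2 members passed in the first 3 of these lists when certain single arrays were left out. Of 24 ATF4 targets Slc7a11 and Psph, an enzyme of serine synthesis, rose, the latter by 0.40 with a call that ended when any 1 of 5 arrays was left out (adjusted p of up to 0.0822). Of 14 heat shock genes Hspb8, a small chaperone of selective autophagy, rose by 0.92. Of 10 genes of zinc handling Slc30a4, a zinc exporter, rose by 0.87 and Mt1, a metallothionein, by 0.40 (3 rises without deleted replicate 2, none with only the 8 rapamycin arrays in the fit), the latter with a call that ended when any 1 of 5 arrays was left out (adjusted p of up to 0.076). Of 12 genes of retinoic acid metabolism Aldh1a3 and Cyp26b1, which degrades retinoic acid, were lower. Cyp26b1 overlapped between the groups (-2.10, adjusted p = 0.0408) and lost its call when any 1 of 6 arrays was left out (adjusted p of up to 0.114). Of 22 genes of axon guidance and junctions Nrp2, a semaphorin receptor, rose by 0.71 and Efnb1 and Cdh6 fell. Of 10 genes of the MITF family and of pigment cells Mlana alone passed, and Tyr, Tyrp1, Slc45a2 and Oca2, which make pigment in melanocytes, were not above background.

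Podocyte markers themselves gave 2 rises and 1 fall among 20, near the 6.34% and 5.12% of all genes, with a median of 0.0732. Plce1, phospholipase C epsilon, read 1.35, 1.00, 2.03 and 1.65 in deleted podocytes and -0.09, 0.11, -0.80 and 0.21 in flox podocytes (1.65, SE 0.35, adjusted p = 0.0109). Podxl, the sialomucin podocalyxin of the foot process surface, rose by 1.18, and its call ended when any 1 of 5 arrays was left out (adjusted p of up to 0.114). Efnb1, ephrin-B1 of the slit diaphragm, read 4.02, 4.22, 4.02 and 4.24 against 4.90, 4.69, 4.87 and 4.84, a narrow and even fall (-0.70, SE 0.14, adjusted p = 0.00762). Wt1, the transcription factor used to identify podocytes, differed by 0.40 (adjusted p = 0.212) and Synpo, synaptopodin, by 0.08 (adjusted p = 0.894).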

How the data were processed

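Values come from 1-colour Agilent SurePrint G3 mouse arrays. The authors read the scans with Agilent Feature Extraction (version 10.7.3.1, per the file headers) and deposited background-subtracted signal intensities for 62976 spots per array and a table of log2 values, which were used as an alternative. Here log2 intensities minus the log2 75th percentile of each array were averaged per probe, control and outlier spots left out (no spot was saturated). Of 56605 probes, 32994 were named through their accessions with RefSeq tables, for 22911 genes. Probes that stood well above background throughout at least 1 rapamycin group were fitted with limma 3.58.1 in R 4.3.3 (4 group means over 16 arrays, Benjamini-Hochberg over 26986 probes), tested on simulated data beforehand. Genes count by their brightest probe in lists. The named genes are Tsc2 and genes the study discusses, the 12 largest rises and falls without overlap, the 3 members of smallest p in each list, and the 6 of smallest p in each direction shared with the untreated comparison. Some items that the rules select are not reported here. Other genes in the text were chosen after their values were seen. Members and lists were chosen with earlier results of these data known. Alternatives were other normalizations, filters, fits and thresholds, and leaving out each array in turn; for list counts, all but normalization and choice of probe were chosen after seeing the data. The number of arrays limits the precision. Figures used Python 3.11.15 and matplotlib 3.10.9.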

Additional observations from a re-analysis of the deposited data

Results flagged for a closer look

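Among 234 sets of 4 values, 17 had 1 array far from the other 3 by Dixon's test, and chance alone gives about 1 in 20, or 11.7. The sets were those of each rapamycin group for the rule-named genes that had an adjusted p under 0.05 or that the study discusses, and for the 75th percentile and the number of spots above background. Rule-named genes that did not pass were otherwise not tested. Tsc2 was highest in deleted replicate 2 at 2.73, with the others at 2.05 to 2.09. Deleted replicate 2 was also the far one for Tafa1 (-6.84), Tpi1 (5.73), Dusp4 (-0.50) and Lrp2 (-1.21), and flox replicate 2 for Dusp4 (0.09) and Etv5 (2.19). Deleted replicate 3 was far for Ulk1 (3.73), Map1lc3b (6.31), Trim58 (-2.02), Ptger2 (-3.78) and Atp6v0e2 (3.47), and flox replicate 3 for Rb1cc1 (2.12) and Mc3r (-6.53). The other far values were Col1a2 in deleted replicate 1 (6.84), Klhl14 in flox replicate 1 (-3.56) and Glis1 in deleted replicate 4 (-2.11).

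The genotype difference with rapamycin was another one than without for the 1 probe that passed the interaction test, by -1.35, and slide and age, which go with the treatment, cannot be told apart from it. It has no gene symbol and was chosen after its value was seen. It read -3.25, -2.97, -3.10 and -3.33 in untreated deleted podocytes against -4.22, -4.44, -4.28 and -4.40 in untreated flox podocytes, and with rapamycin -4.14, -4.64, -4.04 and -4.24 against -4.09, -4.22, -4.01 and -4.03. The groups are apart without treatment and overlap with rapamycin. The call was lost when any 1 of 13 of the 16 arrays was left out.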

How the results depend on the processing

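No named gene changed direction past a threshold under any alternative run, and neither did the interaction probe. Direction was not checked gene by gene for the other called genes and list members. Of 104 named genes past the threshold 49 passed under every alternative run that held their probe, and 24 lost the call when some 1 array was left out. The stricter filter on dim probes held the probes of 88 of the 104. The 909 genes of the rapamycin comparison became 543 with normexp background correction and 591 with no filter on dim probes, 296 with the methods' t-test and Benjamini-Hochberg adjustment, 1922 at an adjusted p alone and 382 at 2-fold, and 573 to 1033 with 1 array left out (lowest without flox replicate 3, highest without deleted replicate 2). The 1545 genes without treatment became 971 with that t-test, 3081 with adjusted p alone and 691 at 2-fold, and 1245 to 1603 with 1 array left out. The 1 interaction probe became 0 with quantile normalization, with no filter and with a trended and robust prior, 35 with normexp and 529 with the t-test unadjusted, and 0 to 3 with 1 array left out. The difference of Tsc2 was -1.15 to -0.84 with 1 array left out; by the t-test its adjusted p was 0.0917 at -0.99. Over all lists 116 members rose and 39 fell, 80 to 129 and 18 to 40 with 1 array left out, and 62 and 9 by the t-test with adjustment.

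With 1 array left out, NRF2 targets gave 21 to 24 rises, sterol genes 14 to 19, glycolysis 5 to 9, HIF1 targets 3 to 7, lysosomal genes 4 to 11 and ERK feedback 4 to 8 falls. With only the 8 rapamycin arrays, lysosomal genes gave 3 rises and ERK feedback 5 falls. The t-test with adjustment gave 13, 4, 3 and 1 for NRF2 targets, HIF1 targets, lysosomal genes and ERK feedback. Of 1170 further list counts 238 moved by over 1.5 times, 172 down and 66 up. The cause was not tested.

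The labels number the samples 1 to 4 in each group. Deviations of same-numbered rapamycin arrays correlated at -0.0203, 0.477, 0.193 and 0.311, and 3 of 8 arrays correlated best with their own number. The labels name no batch that a number marks, but on the slide each number was also 1 column, shared by 1 array of each genotype. The first pair did not correlate, so the numbers were not taken to pair the samples, though the other 3 pairs deviated together. Whether the column caused this was not tested. With the number as a replicate block 769 genes were called (699 of the 909), and 0 interaction probes. In that fit 21 of the 104 named genes lost their call, and over all lists 89 members rose and 27 fell.

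Signals near background limit the fold to a bound for Saa3, Mlana, Klhl14 and the other genes given as at least a fold, and the differences of Tchhl1, Mc3r and Cxxc4 rest in part on values not above it.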
